A study of Mus musculus with 80 samples.

Results

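Hepatic iron regulation was followed through 8 genes: the hepcidin genes Hamp and Hamp2, the hepcidin inducer Bmp6, the transferrin receptors Tfr2 and Tfrc, transferrin (Trf), ferritin heavy chain (Fth1) and the iron exporter ferroportin (Slc40a1). They were chosen by symbol from the 14560 genes in the deposited table, and all 8 passed the filter on low values. Livers came from female mice aged 8 weeks, either wild type or Adamts12-/-, which lack the secreted metalloproteinase ADAMTS12, both labelled C57BL/6J and taken from lines made for an earlier study. Each mouse received 1 intraperitoneal injection, either carbon tetrachloride (CCl4, a liver toxin, 0.3 ml/kg, carried at 3% v/v in olive oil) or the olive oil vehicle alone, and was killed 4 h, 12 h, 24 h or 7 days later. The 16 groups of genotype, treatment and time held 5 mice each, 80 livers in all, and each time had its own vehicle groups. Whether wild-type and knockout mice were littermates is not given in the sources used here.

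Hepcidin is a peptide hormone made by hepatocytes that binds ferroportin and removes it from the cell surface, so that less iron leaves macrophages, enterocytes and hepatocytes. Its gene is switched on by BMP6, which liver sinusoidal endothelial cells release and which signals through SMAD proteins in hepatocytes, and by interleukin 6 acting through STAT3. Inside cells, iron regulatory proteins bind hairpins called iron-responsive elements: in the 5' leader of ferritin and ferroportin mRNA they block translation, and in the 3' end of transferrin receptor mRNA they protect the message from decay when iron is scarce.

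The values are normalized counts, reads per gene divided by a factor for the size of each library, and the whole-read steps of the low values gave library sizes of 18.65 M to 64.49 M reads (median 32.74 M). In wild-type livers Adamts12 itself averaged 23.6 ± 16.6 normalized counts (SD, n = 40), and in Adamts12-/- livers 8.2 ± 5.4 (n = 40). The 12 h Adamts12-/- libraries labelled CCl4 replicate 5 and vehicle replicate 1 stood with the other treatment. Over all genes, that CCl4 library correlated at r = 0.987 with the mean of the vehicle livers and 0.928 with that of the CCl4 livers, and that vehicle library at 0.989 with the CCl4 mean and 0.918 with the vehicle mean. Both were left out, which leaves 78 livers. The differences of the 8 members between CCl4 and vehicle in 12 h knockout livers are given with and without them. Other 12 h knockout results are given without them unless stated. Mice with a number below 7000 in the labels were all wild type: 4 of 5 vehicle livers at 24 h, 4 of 5 CCl4 livers at 7 days, 2 vehicle livers at 7 days and 2 CCl4 livers at 12 h. These are whole-liver measurements, in which fewer cells of a type and less RNA per cell cannot be told apart.

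Hamp and Hamp2 are neighbouring copies on mouse chromosome 7 (build GRCm38), Hamp at chr7:30942368-30944032 and Hamp2 at chr7:30922372-30924681, both on the minus strand and 17687 bp apart. The coding sequences share 233 of 249 bases (93.6%), and the longest identical run in the transcripts is 87 bases, so how the authors' counting split reads between the copies is uncertain. The 250 bases before each RefSeq start site are shown (GRCm38.p6, chr7:30944030-30944279 and chr7:30924182-30924431, minus strand). As described below, a fall after CCl4 passed the test for Hamp2, and no change did for Hamp. Whether the responses of the copies differed was not tested. Capitals mark matches to GGCGCC, the core of the BMP-responsive element, and to TTCNNNGAA, the STAT element, each searched on both strands.
Hamp: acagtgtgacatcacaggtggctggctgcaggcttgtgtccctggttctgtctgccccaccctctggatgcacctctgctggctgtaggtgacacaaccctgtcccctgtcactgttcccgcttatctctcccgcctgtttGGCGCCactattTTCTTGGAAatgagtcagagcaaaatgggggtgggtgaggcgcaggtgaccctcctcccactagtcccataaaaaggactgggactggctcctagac
Hamp2: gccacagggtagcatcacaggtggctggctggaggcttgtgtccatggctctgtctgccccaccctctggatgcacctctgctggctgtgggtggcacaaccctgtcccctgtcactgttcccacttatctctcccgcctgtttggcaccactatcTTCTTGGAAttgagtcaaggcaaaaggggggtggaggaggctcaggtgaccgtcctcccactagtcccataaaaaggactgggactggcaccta
The windows matched at 227 of 247 aligned bases (91.9%) and differed by 20 substitutions. Hamp held GGCGCC 109 bases before its start site, and Hamp2 did not: G145A (Hamp base first, counted from 1 at the 5' end of the Hamp window) falls within it. Both held TTCTTGGAA, 97 and 94 bases before the start site. Of 32851 RefSeq promoter windows of the same length, 9.59% held GGCGCC and 7.02% held TTCNNNGAA. The antioxidant response core TGACNNNGC, searched on both strands and present in 10.2% of windows, matched 108 bases before the Bmp6 start site, and GGCGCC also matched 89 bases before 1 of the Tfrc start sites. These matches describe letters, not binding.

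Iron-responsive elements were searched in the GENCODE M21 transcripts as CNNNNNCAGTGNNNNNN, sense strand, with all 5 bases between the first C and the loop able to pair with the last 5. The pattern was present in 0.961% of 58797 protein-coding transcripts. It was found once in the 5' UTR of Fth1 (chr19:9982732-9982761, plus strand) and of Slc40a1 (chr1:45925464-45925493, minus strand), and 4 times in the 3' UTR of Tfrc (chr16:32631219-32631248, chr16:32631598-32631627, chr16:32631663-32631692 and chr16:32631710-32631739, plus strand). They are shown because these 3 genes share the hairpin but not the end of the message that carries it, with the bulged C and the loop in capitals.
Fth1: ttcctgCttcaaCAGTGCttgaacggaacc
Slc40a1: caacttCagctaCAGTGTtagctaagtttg
Tfrc, first match: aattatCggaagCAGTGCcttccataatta
Tfrc, the second: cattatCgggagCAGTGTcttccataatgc
Tfrc, the third: ctatatCggagaCAGTGAtctccatatgtt
Tfrc, the fourth: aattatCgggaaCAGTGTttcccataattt
The same pattern had no match in the main transcripts of Tfr2, Trf, Bmp6, Hamp or Hamp2.

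After CCl4, Bmp6 and Fth1 rose and Tfr2 fell at 12 h and 24 h in both genotypes. Trf and Slc40a1 fell at 12 h, Hamp2 fell and Tfrc rose at 24 h, and Hamp passed the test at no time. The 12 h direction of Trf turned under quantile normalization, to 0.19 in wild type and 0.52 in the knockout on the log2 scale. Differences were fitted on log2(normalized count + 1) with limma over the 78 livers and are called where the p adjusted over all 14558 genes tested is under 0.05. In wild-type livers 3 of 8 members were called at 4 h (1 higher, 2 lower, against a background of 43.6% of all genes, 23.1% higher and 20.5% lower), 5 at 12 h (2 higher, 3 lower, background 58.4%, 29% and 29.4%), 5 at 24 h (3 higher, 2 lower, background 51.2%, 26.2% and 25%) and 0 at 7 days (background 0.055%, 0.0275% and 0.0275%). In Adamts12-/- livers the counts were 1 of 8 at 4 h (higher, background 38.8%, 21.1% higher and 17.7% lower), 5 at 12 h (2 higher, 3 lower, background 46.7%, 23.6% and 23.1%), 5 at 24 h (3 higher, 2 lower, background 44.1%, 21.1% and 23%) and 1 at 7 days (lower, background 0.694%, 0.309% and 0.385%). At 4 h the shares of members called lay below those of all genes. At 12 h and 24 h, 5 of 8 lay above them, where 44.1% to 58.4% of all genes were also called. Whether the iron genes were called more often than other genes was not tested, so the number called is not read as particular to them. The ranges of CCl4 and vehicle livers did not overlap for 5 of 8 members at 12 h in each genotype (background 37.9% of genes in wild type and 36.2% in the knockout), for 3 and 2 at 24 h (30.3% and 22.6%), for 1 and 0 at 4 h (34.6% and 30.6%) and for 0 and 1 at 7 days (3.89% and 3.03%).

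**Figure D1:**
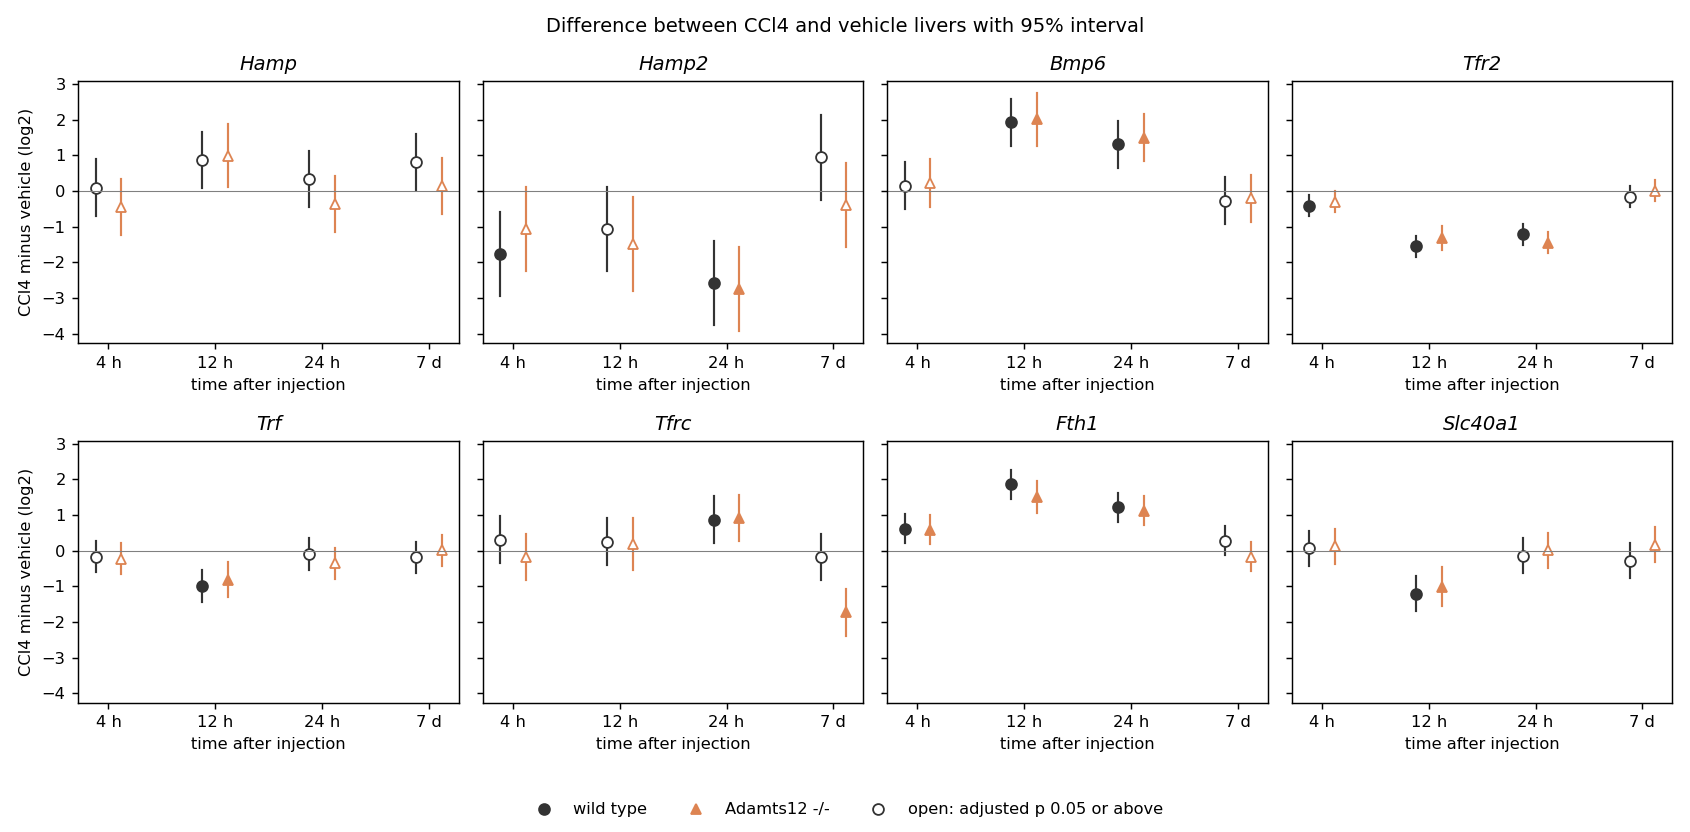
Difference between CCl4 and vehicle livers (log2 of normalized count + 1) for each gene at each time, with 95% intervals from limma. Circles are wild type and triangles Adamts12-/-, filled where the adjusted p is under 0.05. Bmp6 and Fth1 lie above 0 and Tfr2 below it at 12 h and 24 h in both genotypes, and Tfrc in knockout livers lies at -1.73 at 7 days.

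Hamp encodes hepcidin. At 12 h the wild-type vehicle livers held 18429.5, 41887, 25157, 56523 and 32748 normalized counts, and the CCl4 livers 60304, 46731, 93718, 56878 and 49442. The CCl4 values lay mostly higher, but the groups overlapped, and 1 CCl4 liver stood far above the rest. The difference of 0.87 ± 0.40 on the log2 scale (SE, adjusted p = 0.0523) did not pass the threshold. In knockout livers the 12 h values were 19942, 8825, 22095 and 25657 with vehicle and 26603, 31985, 40282 and 45600.3 with CCl4, and these groups did not overlap. That difference was 0.99 ± 0.44 on the log2 scale (SE, adjusted p = 0.0585), also short of the threshold. At 12 h the wild-type call was gained without the mice numbered below 7000 (0.98, adjusted p = 0.0414) and without CCl4 replicate 2, vehicle replicate 2 or vehicle replicate 4 (0.96 to 1.07, adjusted p 0.0241 to 0.046). The knockout call was gained without CCl4 replicate 1 (1.13, adjusted p = 0.0443) or vehicle replicate 5 (1.17, adjusted p = 0.0417), and with both left-out libraries put back the difference was 0.61 (adjusted p = 0.291). At the other times the 95% intervals of the difference reached from -0.69 to 0.89 (4 h), -0.46 to 1.12 (24 h) and 0.02 to 1.60 (7 days) in wild type, and from -1.24 to 0.34, -1.16 to 0.42 and -0.65 to 0.93 in the knockout, with adjusted p of 0.28 to 0.942 over these 6 comparisons.

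Hamp differed with time among the vehicle livers. They held 40054, 43301, 57206, 79838 and 27097 at 4 h in wild type and 7008, 5354, 10811, 15365 and 4147 at 7 days. The 4 h values all lay above the 7 day values, by 2.60 ± 0.40 on the log2 scale (SE, adjusted p = 1.09e-06). In the knockout the vehicle values were 37213, 47446, 56239, 57586 and 71349.9 at 4 h and 7969, 9961, 8095, 21861 and 12478 at 7 days, again without overlap, and the difference was 2.24 ± 0.40 on the log2 scale (SE, adjusted p = 8.93e-06). Of all genes, 20.8% and 27.3% were called between these times. Hamp differed between the 4 vehicle times in both genotypes (F test over times, adjusted p = 1.91e-06 in wild type and 5.41e-05 in the knockout), as did Hamp2 and Tfr2, against a background of 38.9% and 41.7% of genes. The other 5 members passed that test in neither genotype (adjusted p 0.0682 or above). Clock time and feeding at killing are not given in the sources used here.

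Hamp2, the second hepcidin copy, went lower after CCl4. At 24 h the wild-type vehicle livers held 2528, 2281, 2958, 3272 and 2629 normalized counts and the CCl4 livers 182, 655, 163, 2150.1 and 436. Every CCl4 liver lay below every vehicle liver, with 1 CCl4 liver close to the vehicle range and 4 far below it. Hamp2 fell by 2.59 ± 0.59 on the log2 scale (SE, adjusted p = 0.000188), and the means differed 3.81-fold. In the knockout at 24 h the values were 8001, 1671, 4127, 1809 and 2301 with vehicle and 243, 1745, 335, 1051 and 110.1 with CCl4, with 1 CCl4 liver inside the vehicle range, and Hamp2 fell by 2.75 ± 0.59 (SE, adjusted p = 0.000114). Without the mice numbered below 7000, which leaves 1 wild-type vehicle liver at 24 h, the wild-type difference was -2.55 with an adjusted p of 0.0798.

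The fall was already present at 4 h in wild type. Vehicle livers held 6441, 42483, 24437, 36714 and 17281 and CCl4 livers 8903, 7079, 5342, 3602 and 7356. The lowest vehicle liver lay within the CCl4 range and the other 4 above it, and Hamp2 fell by 1.78 ± 0.59 (SE, adjusted p = 0.011). The knockout difference at 4 h was -1.06 ± 0.59 on the log2 scale (SE, adjusted p = 0.155), and without vehicle replicate 1 it was called (-1.58, adjusted p = 0.0332). At 12 h the differences were -1.07 ± 0.59 on the log2 scale (SE, adjusted p = 0.114) in wild type and -1.49 ± 0.66 on the log2 scale (SE, adjusted p = 0.0568) in the knockout, neither past the threshold, and the latter was called without CCl4 replicate 1 (-1.99, adjusted p = 0.0147), vehicle replicate 4 (-1.68, 0.0495) or vehicle replicate 5 (-1.77, 0.039) and stood at -0.79 (adjusted p = 0.38) with the left-out libraries put back. The 7 day differences were 0.94 ± 0.59 and -0.40 ± 0.59 (SE).

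The ratio of Hamp2 to Hamp, each per kb of exon (0.583 and 0.41 kb), was taken in every liver. At 4 h its median was 0.323 in wild-type vehicle livers (0.113 to 0.690) and 0.094 in CCl4 livers (0.055 to 0.130), and 0.214 and 0.160 in the knockout. In wild type the ratio lay at 0.039 to 0.209 in vehicle livers and 0.011 to 0.034 in CCl4 livers at 12 h, and at 0.062 to 0.203 and 0.006 to 0.074 at 24 h. The 12 h ranges did not meet, and the 24 h ranges met at their edges. In the knockout the ratio was 0.047 to 0.492 against 0.011 to 0.080 at 12 h and 0.041 to 0.182 against 0.009 to 0.081 at 24 h. At 7 days the medians were higher than at any earlier time, at 0.973 and 0.754 in wild-type vehicle and CCl4 livers and 1.306 and 0.838 in knockout livers. The ranges met those of earlier times: 1 wild-type vehicle liver at 7 days stood at 0.226, and 1 knockout vehicle liver at 12 h reached 0.492. Given that reads may be shared between the copies, the ratio is a description of the counted values.

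**Figure D2:**
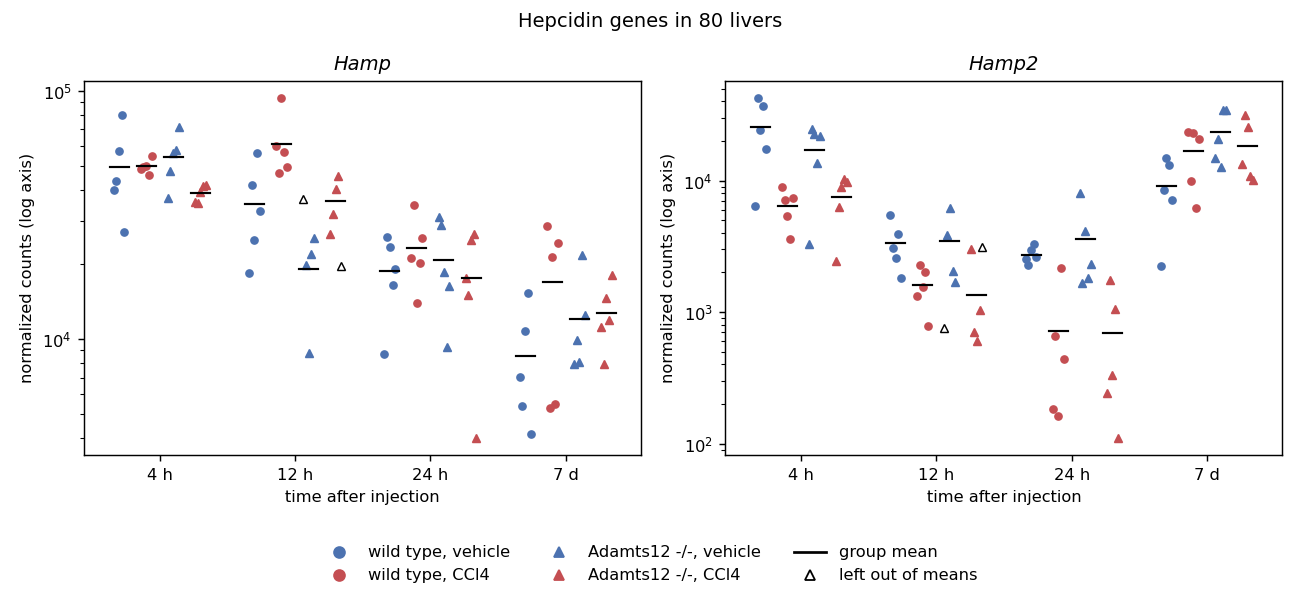
Normalized counts of Hamp and Hamp2 in each of the 80 livers (log axis) by time after injection. Blue is vehicle and red CCl4, circles are wild type and triangles Adamts12-/-, bars are group means, and open triangles are the left-out libraries. Hamp2 in CCl4 livers at 24 h reaches down to 110 in the knockout and 163 in wild type, while Hamp there overlaps the vehicle livers.

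Bmp6 encodes the main inducer of hepcidin. At 12 h the wild-type vehicle livers held 77.0, 72.9, 61.6, 70.6 and 91.6 normalized counts and the CCl4 livers 353, 325, 269, 233 and 264. No values overlapped, and the mean was 3.86-fold higher. Bmp6 rose by 1.93 ± 0.33 on the log2 scale (SE, adjusted p = 1.06e-06). In the knockout the values were 70.0, 63.3, 68.1 and 73.4 against 207, 335, 298 and 296, also without overlap, and Bmp6 rose by 2.01 ± 0.37 on the log2 scale (SE, adjusted p = 7.58e-06). With the left-out libraries put back that difference was 1.23 (adjusted p = 0.02).

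At 24 h the Bmp6 response was uneven between animals. Wild-type CCl4 livers held 590.3, 549, 198, 136 and 569 against 125, 158, 126, 168 and 125 with vehicle. Of the CCl4 livers, 3 lay between 549 and 590.3, 1 just above the vehicle range and 1 within it. The rise was 1.31 ± 0.33 on the log2 scale (SE, adjusted p = 0.000698). In knockout livers the values were 324, 148, 489.5, 104 and 179 with CCl4 and 56.1, 84.3, 117, 78.5 and 54.2 with vehicle, with 1 CCl4 liver inside the vehicle range, and the rise was 1.49 ± 0.33 on the log2 scale (SE, adjusted p = 0.000177). At 4 h and 7 days the differences lay between -0.28 and 0.22 in both genotypes (SE 0.33) and were not called. The CCl4 effect on Bmp6 differed between times (F test, adjusted p = 0.000117 in wild type and 0.000221 in the knockout), one of 6 members in wild type and 5 in the knockout for which it did, against backgrounds of 62.9% and 51.7%.

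Sinusoidal endothelial cells, the known source of BMP6, are marked here by 8 genes, all measured and none at 0. Their summed level at 12 h ranged from 6564 to 13832 in wild-type vehicle livers and 3253 to 6026 in CCl4 livers. Of the markers, 8 of 8 fell (Stab2 by 2.02 ± 0.29 and Kdr by 1.70 ± 0.31), where 29.4% of all genes fell. In the knockout 3 of 8 fell, where 23.1% of all genes fell, with sums of 7870.9 to 11636 and 4763 to 7063. At 12 h Bmp6 was thus higher in groups where these markers were lower. At 24 h the sums were 10937 to 14197 with vehicle and 7040 to 9648 with CCl4 in wild type. The knockout sums then overlapped, at 5236 to 13280 and 4962 to 9947, while Bmp6 was also higher. In wild type at 7 days the sums were 9841 to 14222 and 2203 to 13726.5, and Bmp6 was not called. The part of the markers in the Bmp6 result was not tested.

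Tfr2, a transferrin receptor of hepatocytes that senses iron-loaded transferrin and is needed for full hepcidin expression, had the smallest SE of the 8 genes. At 12 h wild-type vehicle livers held 14098, 14108, 15719.5, 16000.4 and 18602 normalized counts and CCl4 livers 4275, 8802, 4359, 4959.8 and 5185. All CCl4 values lay below all vehicle values, with CCl4 replicate 2 the highest among them. Tfr2 fell by 1.56 ± 0.15 (SE, adjusted p = 4.66e-14). In the knockout the values were 16222, 14295, 14726 and 17019 against 10286, 5295, 5059.6 and 5439, again without overlap, and Tfr2 fell by 1.32 ± 0.16 (SE, adjusted p = 8.96e-10), or by 0.76 (adjusted p = 0.00809) with the left-out libraries put back.

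The Tfr2 fall held at 24 h. Wild-type livers held 22922, 21498, 24068, 21012 and 17869.5 with vehicle and 10124, 10812, 5768, 9663 and 10968 with CCl4, and the fall was 1.21 ± 0.15 (SE, adjusted p = 4.48e-10). In the knockout 23640.3, 23439.7, 25039, 21311 and 26039 stood against 10319, 9353, 8645, 7919 and 7643, a fall of 1.45 ± 0.15 (SE, adjusted p = 3.2e-12). Neither pair of groups overlapped, and the means differed 2.27-fold and 2.72-fold. At 4 h Tfr2 was lower in wild type by a smaller step, 9227, 9811, 9779, 9467 and 10530.3 with CCl4 against 14643, 12667, 11709, 11066 and 15665 with vehicle, which did not overlap (-0.42 ± 0.15 on the log2 scale (SE, adjusted p = 0.0165)). That call was lost without vehicle replicate 5 (-0.35, adjusted p = 0.0637), and the knockout difference at 4 h was -0.30 ± 0.15 on the log2 scale (SE, adjusted p = 0.0981). At 7 days the differences were -0.16 and 0.00. Vehicle livers also differed with time: Tfr2 was 0.54 ± 0.15 (SE, adjusted p = 0.0151) higher at 24 h than at 7 days in wild type and 0.71 ± 0.15 (adjusted p = 0.000405) in the knockout, where 5.52% and 16.4% of all genes were called.

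Trf encodes transferrin, the plasma iron carrier made by hepatocytes, and was the most abundant of the 8 genes. At 12 h wild-type vehicle livers held 758418, 645311, 603922, 564881 and 914338 normalized counts and CCl4 livers 272161, 507205, 298655, 360958 and 323431. The groups did not overlap, and Trf fell by 1.00 ± 0.22 (SE, adjusted p = 9.4e-05). The knockout values were 667054, 973342, 664535 and 860266 against 649800.2, 380151, 380229.6 and 403155, also without overlap though CCl4 replicate 1 lay close to the lowest vehicle liver, and Trf fell by 0.82 ± 0.25 (SE, adjusted p = 0.00444). With the left-out libraries put back the knockout difference was -0.43 (adjusted p = 0.243). Under quantile normalization, which forces every library to the same distribution, the 12 h differences turned to 0.19 (adjusted p = 0.511) in wild type and 0.52 (adjusted p = 0.114) in the knockout, so the direction for this very abundant gene depends on the scaling. No other time was called (-0.36 to 0.00, SE 0.22).

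Tfrc encodes the transferrin receptor through which most cells take up iron, a gene also high in dividing and red-cell precursor cells. At 24 h wild-type livers held 554, 1243, 756, 728 and 903 normalized counts with vehicle and 1315, 1891, 1902, 1083 and 1348 with CCl4. The CCl4 values were mostly higher, and 1 of them lay within the vehicle range. Tfrc rose by 0.87 ± 0.33 on the log2 scale (SE, adjusted p = 0.0219). In the knockout the values were 1077, 757, 729, 937 and 879 with vehicle and 1311, 2242, 1567, 3154 and 789 with CCl4, where 1 CCl4 liver lay within the vehicle range and the spread was the widest of any Tfrc group, and the rise was 0.91 ± 0.33 on the log2 scale (SE, adjusted p = 0.019). At 12 h the Tfrc difference in the knockout was 0.19 without and -0.12 with the left-out libraries, neither called. The 24 h calls were narrow: in wild type the difference was 0.70 (adjusted p = 0.33) without the mice numbered below 7000, 0.51 (adjusted p = 0.291) with that number as a term, and 0.73 to 0.78 (adjusted p 0.0571 to 0.0734) without CCl4 replicate 2, CCl4 replicate 3 or vehicle replicate 1, and in the knockout 0.79 (adjusted p = 0.0521) and 0.67 (adjusted p = 0.0967) without CCl4 replicate 2 or 4.

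At 7 days Tfrc was the sole member called, and only in the knockout. Adamts12-/- vehicle livers held 1179, 1306, 1257, 1647 and 1045 normalized counts and CCl4 livers 315, 323, 636, 351 and 356. All 5 CCl4 values lay below all 5 vehicle values, with 4 of them within 314.7 to 356. Tfrc fell by 1.73 ± 0.33 (SE, adjusted p = 0.0046), a 3.25-fold lower mean, and the call held under all 11 alternatives and with each library left out in turn. Wild-type livers at 7 days held 261, 1289.8, 1718, 1527 and 525 with vehicle and 682, 383, 1436, 669.5 and 1014 with CCl4, spread over a wide and shared range, with a difference of -0.17 ± 0.33 on the log2 scale (SE, adjusted p = 0.838). The test of the difference between the genotypes' responses gave -1.56 ± 0.46 on the log2 scale (SE, adjusted p = 0.306), so a difference between the genotypes was not shown, although with library weights it passed (-1.72, adjusted p = 0.0242). Of the wild-type mice at 7 days, 4 CCl4 and 2 vehicle livers were numbered below 7000.

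Markers of cells rich in Tfrc were set beside that result. In 7 day knockout livers the summed level of 5 markers of dividing cells was 239 to 1491 with vehicle and 306 to 614 with CCl4, and that of the 5 measured of 7 markers of red blood cells and precursors was 6069.9 to 14941 and 9274 to 18561. The ranges overlapped for both lists, and no marker of either was at 0 in all livers of these groups. Of each list 0 of 5 were called, against 0.694% of all genes. The part of these cells in the Tfrc result was not tested.

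Fth1 encodes the heavy chain of ferritin, which oxidizes and stores iron, and its known transcriptional regulators include NRF2. It was higher after CCl4 at each of the first 3 times. At 12 h wild-type livers held 60231, 44157, 39929, 51766 and 43279 normalized counts with vehicle and 232071, 118512, 235009.6, 145528 and 161355 with CCl4. The groups did not overlap, and Fth1 rose by 1.86 ± 0.20 on the log2 scale (SE, adjusted p = 7.31e-12). The knockout values were 41439, 48009, 52071 and 37075 against 78093, 142089, 150311 and 148118, also without overlap, and Fth1 rose by 1.50 ± 0.23 on the log2 scale (SE, adjusted p = 1.47e-07), or 0.80 (adjusted p = 0.0313) with the left-out libraries put back.

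At 24 h Fth1 stood at 135848, 110795, 136021, 61823 and 137909.6 in wild-type CCl4 livers and 49938, 44127, 42995, 53010.4 and 52909.6 in vehicle livers, a rise of 1.21 ± 0.20 on the log2 scale (SE, adjusted p = 1.33e-06). The knockout CCl4 livers held 126071, 75079.8, 155078, 75064 and 209465 and the vehicle livers 61466, 60358, 45644, 62747 and 44553, a rise of 1.12 ± 0.20 on the log2 scale (SE, adjusted p = 8.24e-06). Neither pair of groups overlapped, and the means were 2.40-fold and 2.33-fold higher. At 4 h the rises were 0.62 ± 0.20 on the log2 scale (SE, adjusted p = 0.011) in wild type and 0.58 ± 0.20 on the log2 scale (SE, adjusted p = 0.0188) in the knockout, with ranges that overlapped. At 7 days the differences were 0.27 and -0.17 (SE 0.20) and not called. The mouse genome holds processed copies of Fth1, and how reads shared with them were counted is not given in the sources used here.

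Slc40a1 encodes ferroportin, the only known iron exporter of mammalian cells and abundant in Kupffer cells, the resident liver macrophages. It fell at 12 h alone among the times tested. Wild-type livers held 2926, 3324, 3233, 2398 and 2934 normalized counts with vehicle and 1708, 2187, 778, 1109.7 and 1031 with CCl4, without overlap, and Slc40a1 fell by 1.21 ± 0.25 (SE, adjusted p = 2.62e-05). In the knockout the values were 3976, 3309, 2241 and 4556 against 4718, 1294, 1161 and 1124: CCl4 replicate 1 was above every vehicle liver and the other 3 below them all. Slc40a1 fell by 1.02 ± 0.28 (SE, adjusted p = 0.00169). Without that liver the difference was -1.51 (adjusted p = 9.04e-07), and with the left-out libraries put back it was -0.60 (adjusted p = 0.101). At the other times differences lay between -0.29 and 0.16 (SE 0.25). The effect differed between times in both genotypes (F test, adjusted p = 0.00635 and 0.0179).

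At 12 h, 29.4% of all genes fell in wild type and 23.1% in the knockout. Of 7 Kupffer cell markers, 5 fell in wild type (Vsig4 by 1.29 ± 0.32 and Clec4f by 1.08 ± 0.33) and 4 in the knockout. Their summed level was 6157 to 15055 in wild-type vehicle livers and 2574 to 9554 in CCl4 livers, and 8933 to 20581 against 4197 to 14813 in the knockout, with no marker at 0. At 24 h, 3 of 7 markers fell in wild type, where 25% of all genes fell. In the knockout 2 fell and Marco rose, where 23% of all genes fell and 21.1% rose. Slc40a1 then differed by -0.15 in wild type and 0.01 in the knockout. The part of these cells in the Slc40a1 result was not tested.

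**Figure D3:**
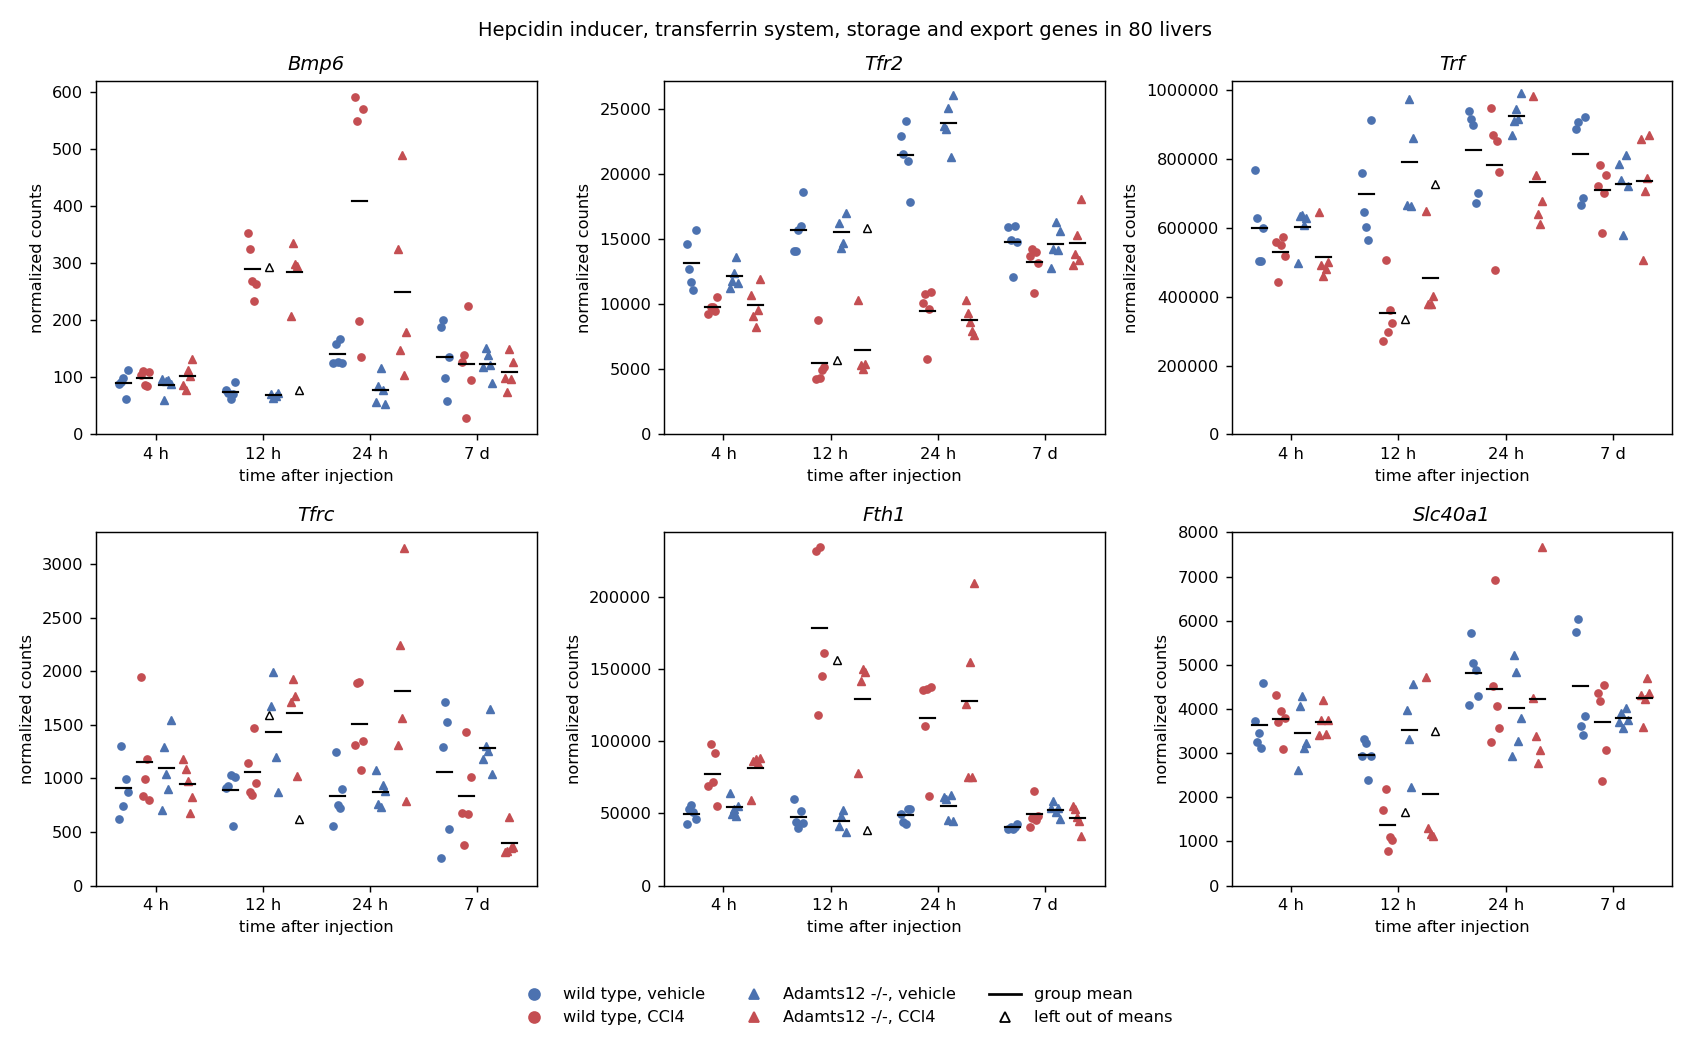
Normalized counts of Bmp6, Tfr2, Trf, Tfrc, Fth1 and Slc40a1 in each of the 80 livers by time after injection. Blue is vehicle and red CCl4, circles are wild type and triangles Adamts12-/-, bars are group means, and open triangles are the left-out libraries, which lie among the other treatment for Bmp6, Tfr2 and Fth1. The Tfrc panel shows 5 knockout CCl4 livers at 7 days between 314.7 and 636.

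No member was called different between the genotypes. The knockout effect minus the wild-type effect of CCl4 was called for 0 of 8 members at 4 h, 12 h, 24 h and 7 days (backgrounds 0.00687%, 0%, 0% and 0.00687%), and in the test over all times together for 0 of 8 (background 0.0137%). The share of all genes at an unadjusted p under 0.05 was not computed. Among members, 1 of 32 differences of effect stood out at that level, that of Tfrc at 7 days. Their 95% intervals were narrowest for Tfr2, from -0.30 to 0.53 at 4 h, -0.20 to 0.68 at 12 h, -0.66 to 0.18 at 24 h and -0.25 to 0.58 at 7 days. They were widest for Hamp2, from -0.95 to 2.39 at 4 h and -2.19 to 1.35 at 12 h, so differences of several-fold would not have been detectable for that gene.

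Direct comparison of the genotypes called 0 of 8 members with vehicle at 4 h, 12 h, 24 h and 7 days (backgrounds 0.343%, 0%, 0% and 0.055%), 0 of 8 with CCl4 at the same times (0.584%, 0.0206%, 0.0137% and 0%), and 0 of 8 in the mean over vehicle times (0.282%). These comparisons share their vehicle livers with the CCl4 effects. At an unadjusted p under 0.05, 7 of 72 were seen. The share of all genes at that level was not computed, so this number is not read as particular to the members. Tfrc was among them with CCl4 at 7 days (-0.99 ± 0.33, SE, adjusted p = 0.642) and in the mean over vehicle times (0.40 ± 0.17). So were Hamp2 with vehicle at 7 days (1.49 ± 0.59) and Hamp with vehicle at 12 h (-0.87 ± 0.42). The rest were Fth1 with CCl4 at 12 h (-0.46 ± 0.22) and Bmp6 at 24 h with either treatment. Bmp6 in 24 h vehicle livers was lower in the knockout, with no overlap (-0.89 ± 0.33, SE, adjusted p = 0.387), where 4 of 5 wild-type mice were numbered below 7000. Ranges were separate in 4 of 64 member comparisons between genotypes, that of Bmp6 among them (background at 24 h with vehicle 3.21% of all genes). The others, of Hamp and Fth1 as follows, had an unadjusted p above 0.05. Hamp was lower in the knockout in 12 h CCl4 livers (background 1.88%), with means of 61415 in wild type and 36118 in the knockout (-0.75 ± 0.42, SE, adjusted p = 0.571). In 4 h CCl4 livers its means were 49643 and 38656 (-0.36 ± 0.40, SE, adjusted p = 0.891, background 3.32%). Fth1 in 7 day vehicle livers was higher in the knockout, with means of 40496 in wild type and 52540 in the knockout (0.37 ± 0.20, SE, adjusted p = 0.658, background 2.05%).

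Per kb of exon, the median over 39 vehicle livers was 217097 for Trf, 53889 for Hamp, 14348 for Fth1, 10592 for Hamp2, 3604 for Tfr2, 415 for Slc40a1, 162 for Tfrc and 23.5 for Bmp6. The ranges of Trf (150293 to 298435) and Hamp (10115 to 194727) overlapped, as did those of Hamp, Fth1 (10688 to 18516) and Hamp2 (2866 to 72869). Bmp6, at 13.9 to 51.2, met only the lowest Tfrc livers (42.1 to 322). Across the 16 groups the highest mean exceeded the lowest 36.6-fold for Hamp2, 7.19-fold for Hamp, 5.94-fold for Bmp6, 4.58-fold for Tfrc, 4.41-fold for Fth1, 4.33-fold for Tfr2, 3.53-fold for Slc40a1 and 2.63-fold for Trf. When the groups of a gene were put in order, 0 of 15 neighbouring pairs had separate ranges for any of the 8.

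The 16 group means of each gene were compared as a description only, since they share treatment, time and vehicle livers. Among members, Fth1 and Tfr2 ran most opposite (Pearson r = -0.87), Tfr2 ran with Trf (0.84), Slc40a1 with Trf (0.83) and Fth1 with Bmp6 (0.82), while Hamp and Hamp2 were nearly unrelated (-0.08). Over all genes with a mean of at least 100 in some group, the closest patterns were those of Gtf2a2 to Hamp (0.954), Sdhb to Hamp2 (0.978), Tgm2 to Tfrc (0.806), Psap to Trf (0.946), Ptprj to Slc40a1 (0.942), Myo5a to Bmp6 (0.960), Ywhah to Fth1 (0.984) and C4b to Tfr2 (0.991). The next ranks were D11Wsu47e and Phospho2 for Hamp, Gm32461 and Gls2 for Hamp2, Pdss1 and Mrps22 for Tfrc, Cdc42bpg and Fam168a for Trf, Fes and Stard9 for Slc40a1, Anxa3 and Ampd3 for Bmp6, Eif4ebp1 and Cap1 for Fth1, and the complement gene Hc and Nipsnap3b for Tfr2.

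Genes of the wider pathway are set beside the shares of all genes called at 12 h, 29% higher and 29.4% lower in wild type and 23.6% and 23.1% in the knockout. Of 13 receptors and signal carriers of the BMP pathway, 4 rose and 6 fell at 12 h in each genotype (median -0.18 in wild type and -0.34 in the knockout, against -0.05 and -0.03 over all genes). Hjv, the BMP co-receptor hemojuvelin, fell by 2.02 ± 0.35 (SE, adjusted p = 1.51e-06) at 12 h and by 2.32 ± 0.35 (1.16e-07) at 24 h in wild type, and by 2.00 ± 0.39 and 1.72 ± 0.35 in the knockout. Tmprss6, the protease that cleaves hemojuvelin and lowers hepcidin, fell by 1.38 ± 0.20 and 1.18 ± 0.20 in wild type. Neo1, a hemojuvelin binding receptor, rose by 1.88 ± 0.24 (SE, adjusted p = 7.41e-10) and 1.64 ± 0.24, and Bmp2, another hepcidin-inducing ligand of endothelial cells, fell by 1.07 ± 0.27 and 0.97 ± 0.27. Among 4 measured suppressors of hepcidin, 3 fell at 12 h and 24 h in each genotype: Tmprss6, Fgl1 and Furin. At 24 h, 25% of all genes fell in wild type and 23% in the knockout.

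Of 6 genes that BMP-SMAD signalling switches on, 1 rose and 3 fell at 12 h in wild type, and 5 rose and 0 fell at 24 h (median 0.70, against 0.04 over all genes, of which 26.2% rose and 25% fell). In the knockout 1 rose and 2 fell at 12 h, and 3 rose at 24 h (median 0.45, against 0.02 over all genes, of which 21.1% rose and 23% fell). The difference between these times was not tested for the list. Of the wild-type vehicle livers at 24 h, 4 of 5 came from mice numbered below 7000, and the lists were not refitted without them. Id1, a direct SMAD target, rose by 1.18 ± 0.37 (SE, adjusted p = 0.00479) at 12 h and by 2.81 ± 0.37 (3.45e-09) at 24 h in wild type, and by 1.01 ± 0.41 and 2.63 ± 0.37 in the knockout. Smad7, an inhibitor induced by the pathway, rose by 1.26 ± 0.21 at 4 h and 0.62 ± 0.21 at 24 h in wild type, and was the only gene of these lists called at 7 days, in the knockout (0.85 ± 0.21, adjusted p = 0.0311). Other signals, TGF-beta among them, also act on these genes.

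Of 9 acute phase genes that interleukin 6 induces through STAT3, 5 fell and 0 rose at 12 h in wild type (median -1.39), and 3 fell and 0 rose in the knockout (median -0.86). Of all genes 58.4% and 46.7% were called then, 29.4% and 23.1% as lower. The number called in either direction lay near or below the background, though all those called fell. Fgg, a fibrinogen chain, fell by 1.78 ± 0.32 (SE, adjusted p = 2.02e-06) and 1.46 ± 0.35, and Lbp, which binds bacterial lipopolysaccharide, by 1.39 ± 0.30 and 1.14 ± 0.33. At 24 h, 1 rose and 1 fell in wild type, where 26.2% of all genes rose and 25% fell. In the knockout 1 rose and 7 fell, where 21.1% of all genes rose and 23% fell. The difference in these counts was not tested, and no gene of the list was called in the test of the genotypes' responses. The 9 measured genes listed for the signal included Il1b and Inhbb but not Il6 itself. Of these, Jak2 rose (0.79 ± 0.15) and Stat3 fell (-0.99 ± 0.20) at 12 h in wild type, with 2 called in each direction.

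Of 12 measured uptake genes, 1 rose and 7 fell at 12 h in wild type (median -0.92), where 29% of all genes rose and 29.4% fell. In the knockout 1 rose and 4 fell (median -0.65), and the 5 called lay below the background of 46.7%. Steap1, a metalloreductase, was the one that rose, by 4.42 ± 0.47 (SE, adjusted p = 1.84e-12) and 4.63 ± 0.52. Lrp1, a receptor for haem-hemopexin, fell by 2.34 ± 0.27 and 1.93 ± 0.30, and Slc39a8, a metal ion importer, by 0.80 ± 0.19 and 0.68 ± 0.21. Of 6 measured storage and release genes, 3 rose and 3 fell at 12 h in wild type and 3 rose and 2 fell in the knockout. The iron chaperone Pcbp2 rose by 0.78 ± 0.12, and the ferroxidases Cp and Heph fell by 1.00 ± 0.20 and 1.36 ± 0.30 in wild type.

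Of 11 genes of haem synthesis, 3 rose and 7 fell at 12 h in wild type (median -0.62) and 2 rose and 6 fell in the knockout (median -0.55), against 58.4% and 46.7% of all genes called in either direction. Fech, which inserts iron into haem, fell by 1.53 ± 0.16 (SE, adjusted p = 3.22e-12) and 1.43 ± 0.18, while Slc25a37, which carries iron into mitochondria, rose by 1.31 ± 0.19 and 1.36 ± 0.22. Of 8 genes of the iron regulatory protein system and iron-sulfur clusters, 2 rose and 5 fell in wild type and 1 rose and 5 fell in the knockout. Aco1 and Ireb2, which encode the iron regulatory proteins, fell by 0.73 ± 0.20 and 0.52 ± 0.15 in wild type. Of 7 genes of haem breakdown and transport, 3 rose and 3 fell in wild type and 2 rose and 3 fell in the knockout, and Hmox1, the haem oxygenase, rose most at 4 h, by 3.30 ± 0.31 (SE, adjusted p = 3.26e-14) and 2.62 ± 0.31. Of 6 hypoxia genes, 1 rose and 2 fell at 12 h in wild type, and 1 rose and 1 fell in the knockout.

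**Figure D4:**
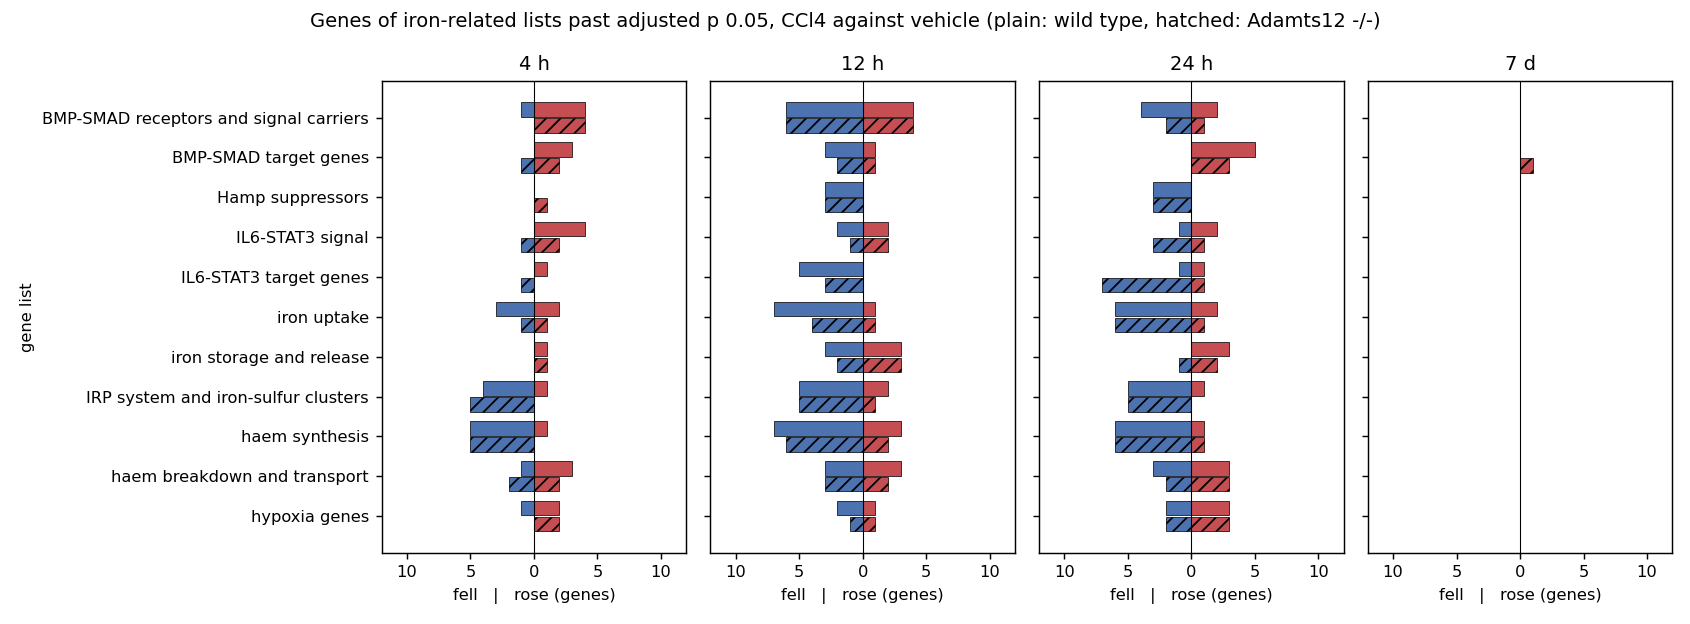
Number of genes of each iron-related list that rose (right, red) or fell (left, blue) after CCl4 at an adjusted p under 0.05, by time, in wild-type (plain bars) and Adamts12-/- livers (hatched bars). BMP-SMAD target genes show 5 rises at 24 h in wild type and 3 in the knockout, and a single gene, Smad7, was called at 7 days. At 24 h, 4 of 5 wild-type vehicle livers came from mice numbered below 7000.

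Markers of hepatocytes and of other liver cells also moved after CCl4. All 6 hepatocyte markers fell at 12 h in both genotypes, where 29.4% and 23.1% of all genes fell (Hnf4a by 1.35 ± 0.15 in wild type and 1.34 ± 0.16 in the knockout), with summed levels of 2924039.7 to 5155885 in wild-type vehicle livers and 1259684 to 2856833 in CCl4 livers, and none at 0. At 24 h, 4 of 6 fell in each genotype, where 25% and 23% of all genes fell. Of the members made by hepatocytes, Tfr2 fell at 12 h and 24 h, Trf at 12 h and Hamp2 at 24 h in both genotypes, whereas Hamp was called at no time. Of 7 markers of infiltrating monocytes and macrophages, 3 rose at 12 h in each genotype, where 29% and 23.6% of all genes rose. At 24 h, 5 and 6 of them rose (Lgals3 by 4.09 ± 0.49 and 3.94 ± 0.49), where 26.2% and 21.1% of all genes rose. Of 7 stellate cell markers, 3 fell at 12 h in wild type and 1 in the knockout, where 29.4% and 23.1% of all genes fell. The part of these cells in the results above was not tested.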

How the data were processed

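RNA from 80 mouse livers was sequenced from stranded poly(A) libraries made with 500 ng total RNA, per the labels' protocols. STAR, HTSeq, DESeq2 and the build GRCm38 are named, without versions, in the submitters' processing notes. The authors deposited 1 long table of normalized counts, a signal of read counts divided by a size factor for each library. The low values are whole multiples of 1 step in each library, so reads could be recovered from them, but the count tests planned on such reads as alternatives were not run.

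Values were transformed as log2(value + 1) and fitted with limma 3.58.1 (R 4.3.3, empirical Bayes with trend) with 16 group means over 78 livers. The filter asked for 10 normalized counts or more in 5 libraries or more (14558 genes kept, 2 removed). P-values were adjusted by Benjamini-Hochberg over all genes within each comparison, and a gene is called at an adjusted p under 0.05. Intervals are at 95%. The fit was tested on simulated data. Where nothing says that samples were independent beyond being separate mice, p-values measure the spread between these livers only. Library size sets the counting error, with 1 read worth 0.385 to 2.005 normalized counts.

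All 8 members are described in every group, and up to 4 called genes with the smallest adjusted p of each list may be named. Similar patterns are the 3 genes with the highest Pearson r over the 16 group means. The members and gene lists were chosen with earlier results of these data known. Alternatives were a pseudocount of 8, no filter, a filter of 100, quantile and trimmed-mean scaling, library weights, only the groups compared, all 80 libraries, a replicate block, mouse number below 7000 as a term or left out, and each library left out in turn. Of 14560 genes, 14552 were placed in GENCODE M21. RefSeq promoter windows were found for 6 of 8 members, and those of Trf and Slc40a1 were not used here.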

Additional observations from a re-analysis of the deposited data

Results flagged for a closer look

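In 128 sets of values (8 genes in 16 groups), the highest or lowest liver stood apart from the rest of its group by Dixon's criterion 14 times, where chance gives about 1 in 20. Knockout CCl4 replicate 1 at 12 h stood apart for 4 genes: Trf (649800.2) and Slc40a1 (4718) as the highest, Tfr2 (10286) as the highest and Fth1 (78093) as the lowest. Over all genes that liver correlated at r = 0.968 with the other CCl4 livers of its group and 0.951 with the vehicle livers, against 0.919 to 0.924 with vehicle for the other 3. Without it the 12 h knockout differences were -1.01 for Trf (adjusted p = 0.000624), -1.51 for Slc40a1, -1.56 for Tfr2 and 1.73 for Fth1. Each was larger than with it, which follows from picking the liver nearest the vehicle values for these genes. Knockout CCl4 replicate 1 at 4 h also stood apart for Trf (645810.1, highest) and Fth1 (59638, lowest).

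Single values stood apart for Hamp in wild-type CCl4 replicate 3 at 12 h (93718), Hamp2 in wild-type CCl4 replicate 4 at 24 h (2150.1), Tfrc in wild-type vehicle replicate 4 at 12 h (560.7) and in knockout CCl4 replicate 3 at 7 days (636), Trf in knockout vehicle replicate 1 at 4 h (498973), Bmp6 in knockout vehicle replicate 2 at 4 h (61.2), and Tfr2 in wild-type CCl4 replicate 2 at 12 h (8802) and replicate 3 at 24 h (5768).

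The left-out knockout library labelled vehicle replicate 1 at 12 h lay above the other 4 vehicle livers for Hamp (36837), Bmp6 (292) and Fth1 (156091). It lay below them all for Trf (334218), Tfr2 (5753), Slc40a1 (1676) and Hamp2 (763), and within their range for Tfrc (1595).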

How the results depend on the processing

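Of 25 called differences between CCl4 and vehicle among the members, 16 kept their direction and their call under all 11 alternatives and with each of 78 libraries left out in turn. Quantile normalization turned Trf at 12 h to 0.19 in wild type and 0.52 in the knockout, and it called Hamp at 12 h in wild type (a difference of 1.50) and the knockout (1.67) and at 24 h in wild type (0.92). Hamp at 12 h in wild type was also called with the filter of 100 (adjusted p = 0.0473), trimmed-mean scaling (0.0471), the mouse number term (0.0218) and only the groups compared (0.0283), and in the knockout without the mice numbered below 7000 (0.0406) and with only the groups compared (0.0407). Hamp2 at 12 h in the knockout was called with quantile normalization (0.0468), library weights (0.0029) and only the groups compared (0.0475), and in wild type with the last (0.0128). At 4 h the share of higher genes among those called was 54.5% in the knockout and 44.3% under quantile normalization. With all 80 libraries the 4 h calls of Fth1 (0.62, adjusted p = 0.0573 in wild type, and 0.58, adjusted p = 0.0813 in the knockout) and of Tfr2 in wild type (adjusted p = 0.0859) were lost. With only the groups compared, the 12 h calls of Trf (adjusted p = 0.0815 in wild type and 0.326 in the knockout) and of Slc40a1 in the knockout (0.087) were lost. The causes were not tested.

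The number of members called in the knockout at 4 h was 1, and it was 3 with library weights, 3 with only the groups compared, 0 with all 80 libraries, and 1 to 2 leaving out libraries in turn. With library weights, 1 member was called for the genotype difference in response at 7 days, 1 between vehicle genotypes at 24 h and 1 at 7 days. Library weights called 415, 323 and 222 of all genes in these comparisons. Between wild-type vehicle times, 6 members were called with library weights and 5 with only the groups compared. No count over all genes was made there, so these member counts are not read as particular to the iron genes. All 80 libraries gave 1 member in wild type at 4 h and 3 in the knockout at 12 h. Leaving out the mice numbered below 7000 gave 3 in wild type at 24 h.

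Counts over all genes moved by more than 1.5 times from 7458 to as low as 2743 in wild type at 24 h (without mice numbered below 7000), from 6805 to as low as 2397 in the knockout at 12 h (all 80 libraries), and at 7 days from 8 to between 0 and 300 in wild type and from 101 to between 14 and 882 in the knockout. Differences of response between genotypes moved from 1 to at most 10 (4 h), from 0 to at most 117 (12 h), from 0 to at most 64 (24 h) and from 1 to between 0 and 415 (7 days). Knockout against wild type with vehicle moved from 50 to between 6 and 228, from 0 to at most 42, from 0 to at most 323 and from 8 to between 3 and 222, in order of time, and from 41 to between 22 and 212 in the mean. With CCl4 it moved from 85 to between 55 and 360, from 3 to between 1 and 1277, from 2 to 0, and from 0 to at most 34. Most of the high counts came with library weights.

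By the median, CCl4 and vehicle mice of equal replicate number did not deviate together more than others. Over all genes, 38 pairs of equal number correlated at a median r of -0.01, 8 of them above 0.1, and 153 pairs of unequal number at 0.00576. These medians cannot show that the mice were unpaired. The replicate block gave each replicate number a term shared by all groups, so it does not test pairs within a genotype and time. With it the members called stayed at 3, 5, 5 and 0 in wild type and 1, 5, 5 and 1 in the knockout, and the block changed 0 member calls. Planned fits with edgeR and DESeq2 on reads recovered from the value steps were not run, because the deposited long table, which holds all libraries in 1 column, could not be checked as recovered reads, so how a count model would change the calls is not known. With 5 or fewer livers a group, small differences in the variable hepcidin genes were not detectable.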
